A study of Mus musculus with 3 samples.

Results

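The genes described are 8 members of the calcineurin axis in mouse heart cells: the calcineurin subunit genes Ppp3ca, Ppp3cb and Ppp3r1, the regulators Rcan1, Lmcd1 and Myoz2, and the NFAT genes Nfatc3 and Nfatc4. They were taken by name, 8 of 55366 nuclear-encoded features in the deposited tables, and they were put together with earlier results of these data in view. Rcan1 and Lmcd1 were noted because both were highest on day 2, and all 8 were listed with the split of the day 3 wells by Ino80 level, so the values of those contrasts describe the choice and are not findings. All 8 were present in every table.

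The study profiled single wells of adult heart cells from tamoxifen-treated mice on the iCELL8 platform, in which imaged cells are amplified one per nanowell. The groups are 1 library each: day 1, labelled D1_INO80_OE, day 2, labelled D2_INO80_OE, and day 3, whose genotype label holds both D3_INO80_OE and D3_Ctrl. No age or strain is given. The series title names Myh6-MCM, a Cre recombinase that tamoxifen activates in cardiomyocytes, together with Ino80fl/fl, whereas the genotype labels read as Ino80 overexpression and the design text speaks of Ino80 induction. Ino80 is the ATPase of the INO80 chromatin remodelling complex. Day 0, which the design text also names, was not analysed here, so no unperturbed baseline stands behind any value, and no file assigns a day 3 well to a genotype. The day 3 library is therefore given as a mixture, and also as wells with Ino80 at or above 1000 CPM (Ino80-high) and under 100 CPM (Ino80-low), which are expression classes of 1 library and not genotypes.

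Calcineurin is a phosphatase that calcium-bound calmodulin switches on. It is built of a catalytic A subunit and a regulatory B subunit, and it removes phosphate from NFAT transcription factors, which then enter the nucleus. In cardiomyocytes the pathway is known for driving hypertrophic growth, and Rcan1 is both one of its target genes and a brake on the enzyme.

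The libraries held 1232, 1063 and 1099 wells on days 1, 2 and 3, with 487461107, 452070922 and 484369736 counts in all. Levels are counts per 1000000 counts of nuclear-encoded genes (CPM), summed over the cardiomyocyte compartment, which means kept wells outside clusters in which 3 or more markers of a non-cardiomyocyte cell type passed and is thus a definition by exclusion. Clusters with fewer such markers stayed in: the one led by Ccl5 passed 2 pericyte and smooth muscle markers, and the one led by Igkc passed 1 B cell marker. The compartment held 553, 570 and 891 wells on days 1, 2 and 3, and the day 3 wells comprised 403 Ino80-high, 440 Ino80-low and 48 between. All 12 ventricular cardiomyocyte markers had counts in each of these sets of wells. Ino80 itself stood at 2941, 5144 and 1196 CPM on days 1, 2 and 3, and at 3038 CPM in Ino80-high against 18.3 CPM in Ino80-low wells. Under 100 CPM of Ino80 lay 4 compartment wells of day 1 and 0 of day 2. The median share of mitochondrial counts per well was 41.0, 44.3 and 21.3% on days 1, 2 and 3, so the day 3 library stood apart in it. The libraries share 278 well barcodes between days 1 and 2, 268 between days 1 and 3 and 247 between days 2 and 3.

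Cardiomyocyte RNA was also present in wells named for other cell types. Myh6, the main adult cardiac myosin heavy chain, stood at 11257, 9970 and 10012 CPM in macrophage-like wells on days 1, 2 and 3, beside 13963, 12861 and 11640 CPM in the compartment. Myoz2, a muscle gene, had a count in 93.8, 94.8 and 97.6% of macrophage-like wells, beside 98.9, 98.2 and 98.7% of compartment wells. Median counts per well were 320035, 360895 and 379733 in macrophage-like wells and 367355, 358276 and 360693 in the compartment. A share of wells with a count at or below the macrophage-like share is therefore not read as expression in cardiomyocytes. With 1 library a day there are no replicates: no p-value is given, each difference compares libraries, and each 95% interval covers counting error only.

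Rcan1 (ENSMUSG00000022951, chr16:92391953-92470867, minus strand, mm10) encodes a calcineurin inhibitor and has separate starts, of which the downstream one is known as the start of the short isoform that calcineurin and NFAT induce. Lmcd1 (ENSMUSG00000057604, chr6:112273758-112330425, plus strand) encodes a LIM domain protein reported in mouse heart to raise calcineurin signalling. Myoz2 (ENSMUSG00000028116, chr3:123006206-123035015, minus strand) encodes calsarcin, which anchors calcineurin at the Z-disc and restrains it. RefSeq promoter windows of GRCm38.p6, from 250 bases before to 50 after a start, were found for 7 of the 8 members, in 9 windows. Those of the 3 regulators are shown, since Rcan1 and Lmcd1 were highest on day 2 and Myoz2 went against them in the day 3 split. Capitals mark the NFAT core letters GGAAA, or TTTCC where the core is on the other strand. The windows are chr16:92400029-92400328 for the downstream and chr16:92466120-92466419 for the upstream Rcan1 start, 66091 bases apart, then chr6:112273508-112273807 for Lmcd1 and chr3:123034938-123035237 for Myoz2, each printed 5′ to 3′ on the strand of its gene.
Rcan1 downstream start: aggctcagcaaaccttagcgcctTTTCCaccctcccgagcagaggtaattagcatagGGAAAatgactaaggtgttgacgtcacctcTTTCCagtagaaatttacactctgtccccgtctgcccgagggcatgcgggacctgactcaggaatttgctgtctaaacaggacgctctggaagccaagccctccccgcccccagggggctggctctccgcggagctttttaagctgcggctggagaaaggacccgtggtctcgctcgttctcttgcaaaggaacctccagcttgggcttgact
Rcan1 upstream start: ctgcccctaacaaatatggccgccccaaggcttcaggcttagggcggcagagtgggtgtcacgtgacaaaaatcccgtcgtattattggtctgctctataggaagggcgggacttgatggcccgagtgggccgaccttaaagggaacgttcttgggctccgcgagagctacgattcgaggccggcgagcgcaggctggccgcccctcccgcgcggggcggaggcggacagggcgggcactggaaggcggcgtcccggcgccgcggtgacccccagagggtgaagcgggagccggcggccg
Lmcd1: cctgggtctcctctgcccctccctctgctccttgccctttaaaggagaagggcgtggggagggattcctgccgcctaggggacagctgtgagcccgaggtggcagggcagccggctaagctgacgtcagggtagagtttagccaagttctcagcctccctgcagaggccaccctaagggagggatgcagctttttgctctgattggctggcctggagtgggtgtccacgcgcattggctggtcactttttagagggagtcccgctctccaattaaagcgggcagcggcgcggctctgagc
Myoz2: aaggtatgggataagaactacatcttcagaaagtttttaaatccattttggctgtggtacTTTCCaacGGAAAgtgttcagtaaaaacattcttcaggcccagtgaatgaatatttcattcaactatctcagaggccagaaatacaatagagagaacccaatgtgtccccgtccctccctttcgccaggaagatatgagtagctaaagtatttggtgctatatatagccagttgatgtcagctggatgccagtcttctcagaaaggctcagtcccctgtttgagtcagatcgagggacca

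The downstream Rcan1 window held 3 NFAT core matches, with first bases at -227, -193 and -163 from the start, and the upstream window held 0. An AP-1 match (TGANTCA, a palindrome counted once for both strands) lay at -110 of the downstream window, whose letters there are TGACTCA. The Myoz2 window held 2 core matches, at -190 and -182, and 1 AP-1 match, at 31. The Lmcd1 window held 0 of both motifs. Among 32817 RefSeq promoter windows of the same length, 61.3% held the NFAT core at least once on either strand, 9.41% held it 3 times or more, and 7.81% held the AP-1 letters. The counts are per gene and do not tell which Rcan1 start was used, and a match of letters says nothing about binding.

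Rcan1 and Lmcd1 were the members that stood farthest above day 1 on day 2, and both were highest on that day. Rcan1 stood at 52.8, 181 and 61.9 CPM on days 1, 2 and 3, with well medians of 9.75, 95.5 and 11.5 CPM. From the first to the third quartile over wells, it was at 0 to 63.6 CPM on day 1, at 20.2 to 263 CPM on day 2 and at 0 to 85.1 CPM on day 3. The wells therefore overlapped widely between days, while the day 2 median lay above the third quartile of the other days. Day 2 over day 1 gave a log2 ratio of 1.77 for Rcan1 (95% counting interval 1.74 to 1.81), and the day 3 mixture over day 2 gave -1.54 (-1.57 to -1.52). The day 3 mixture over day 1 gave 0.23. Among marker lists of other cell types in the compartment, the 8 erythroid markers summed to 365 CPM on day 2 against 37.2 CPM on day 1, nearly all of it globin RNA. The 8 B cell markers summed to 474 against 8.18 CPM, of which Igkc made up 98.1% on day 2, and a single well held 98.4% of its counts; Ms4a1 was at 0 on day 2 and Cd79a on day 1. The part of these cells' RNA in the day 2 levels was not tested.

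Lmcd1 stood at 18.2, 74.7 and 49.5 CPM on days 1, 2 and 3, with well medians of 0, 14.9 and 4.71 CPM. Day 2 was highest and day 1 lowest, and the first quartile over wells was 0 on each day. The third quartile over wells was 2.70, 79.4 and 61.4 CPM. Lmcd1 had a log2 ratio of 2.04 for day 2 over day 1 (1.98 to 2.10), 1.44 for the day 3 mixture over day 1 and -0.60 for the day 3 mixture over day 2. The share of wells with a Rcan1 count was 66.4, 90.2 and 73.2% on days 1, 2 and 3, and that of Lmcd1 was 27.7, 69.3 and 60.6%. After each well was thinned to 30000 nuclear counts, the shares were 40.4, 74.3 and 44.1% for Rcan1 and 17.1, 47.0 and 34.8% for Lmcd1, in the same order of days. In macrophage-like wells the unthinned shares were 58.8, 88.3 and 75.6% for Rcan1 and 17.5, 68.8 and 63.4% for Lmcd1, so the compartment shares were close to these on day 2 and below them on day 3, and no expression in a given cell type is read from them. No single well carried more than 3.70% of the Rcan1 counts or 9.24% of the Lmcd1 counts of a day.

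**Figure D1:**
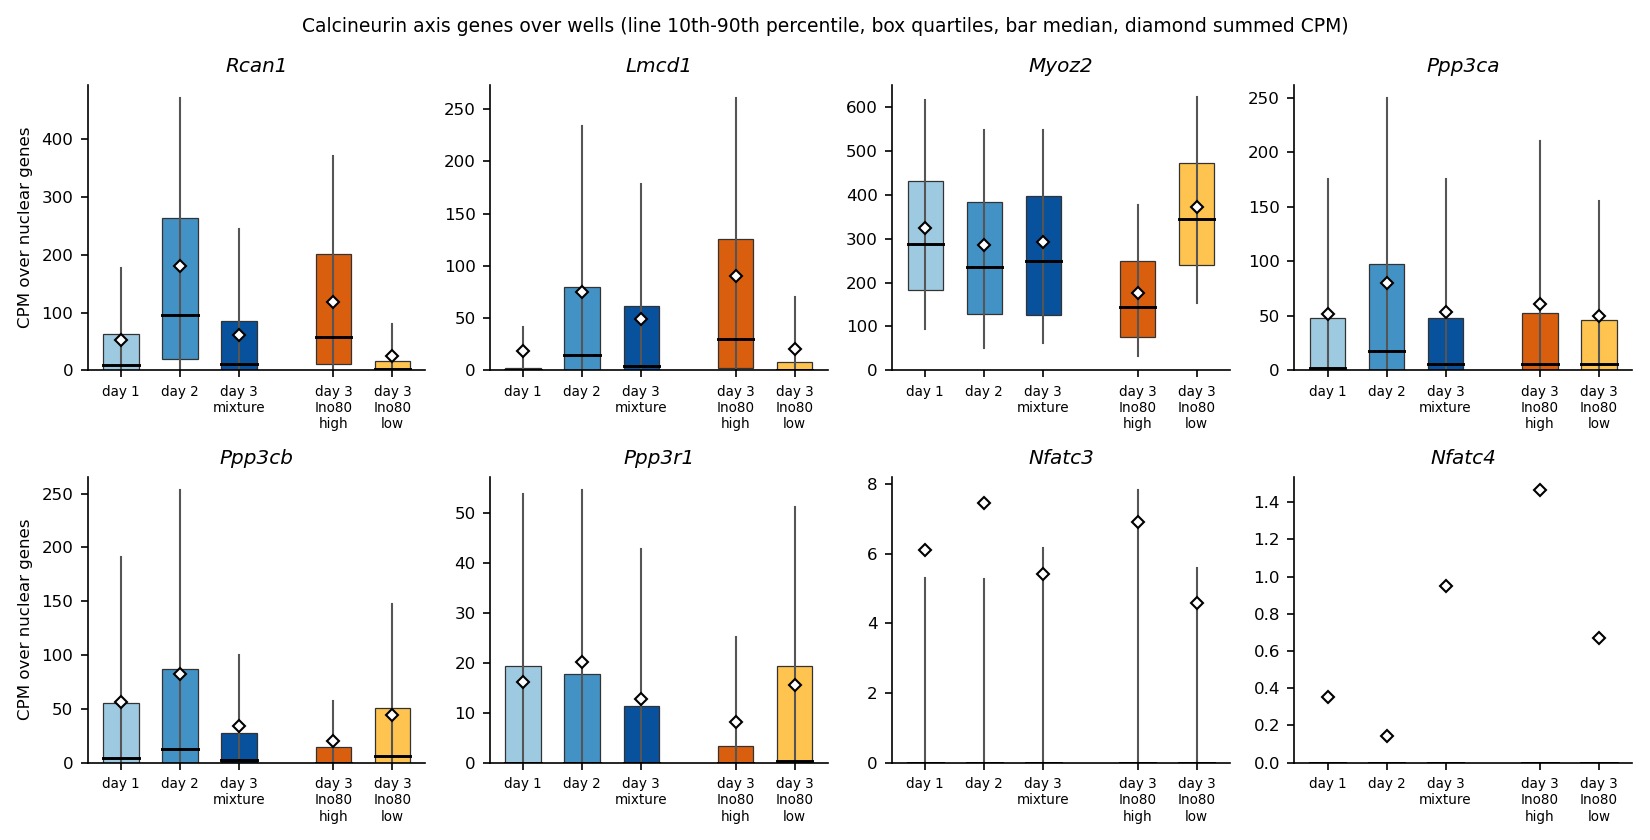
Levels of the 8 members over compartment wells, in CPM over nuclear-encoded genes, with boxes for the quartiles, bars for the median, lines for the 10th to 90th percentile and diamonds for the summed level. Rcan1 and Lmcd1 are highest on day 2 and higher in Ino80-high than in Ino80-low wells of day 3, Myoz2 and Ppp3cb are lower in Ino80-high wells, and Nfatc4 was summed from few counts.

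Myoz2 differed little between days. It stood at 323, 285 and 293 CPM on days 1, 2 and 3, with well medians of 289, 234 and 250 CPM. Its log2 ratio was -0.18 for day 2 over day 1 (-0.20 to -0.16) and 0.04 for the day 3 mixture over day 2. For the day 3 mixture over day 1 it was -0.14, and 0.23 with mitochondrial counts in the total, so no direction holds there. Per kilobase of exon, Myoz2 was the most abundant member, at 94.4, 83.3 and 85.5 CPM per kilobase on days 1, 2 and 3. Rcan1 was at 17.1, 58.5 and 20.1 and Lmcd1 at 10.5, 43.2 and 28.6 CPM per kilobase. On this scale, which divides by the length of all annotated exons, Lmcd1 passed Rcan1 on day 3. In CPM Lmcd1 stood below Rcan1 on that day (49.5 against 61.9). The catalytic subunits lay at 9.33 CPM per kilobase or lower.

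The catalytic subunits were both highest on day 2. Ppp3ca (chr3:136670124-136937727, plus strand), which encodes the A-alpha subunit, stood at 52.1, 79.8 and 53.8 CPM on days 1, 2 and 3. Ppp3cb (chr14:20499364-20546573, minus strand), which encodes the A-beta subunit, stood at 56.4, 82.2 and 34.3 CPM, lowest on day 3. Day 2 over day 1 gave log2 ratios of 0.61 for Ppp3ca (0.57 to 0.66) and 0.54 for Ppp3cb (0.50 to 0.58). In the Ccl5 cluster (157 wells on day 2, 341 on day 1), Ppp3cb was at 49.2 against 39.1 CPM, day 2 against day 1. In the Igkc cluster (408 and 179 wells) it was at 95.8 against 90.4 CPM. Ppp3ca was at 53.4 against 45.8 CPM and at 91.6 against 67.5 CPM in these clusters. The part of the cluster mix in the ratios was not tested. Between the day 3 mixture and day 2 the log2 ratio was -0.57 for Ppp3ca and -1.26 for Ppp3cb (-1.30 to -1.22). The day 3 mixture over day 1 gave 0.05 for Ppp3ca and -0.72 for Ppp3cb. Per kilobase of exon, Ppp3ca and Ppp3cb were close on day 1, at 5.22 and 6.41 CPM per kilobase. Both had low well medians, between 2.51 and 17.4 CPM over the days.

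On day 2, Ppp3cb was higher in each higher band of the mitochondrial share of the wells. It stood at 41.0 CPM in 71 wells with under 25% mitochondrial counts and 61.2 CPM in 102 wells with 25 to 35%. It was at 89.9 CPM in 126 wells with 35 to 45% and 105 CPM in 271 wells above that. The order was not steady on day 1, at 54.7, 46.4 and 92.9 CPM from 25% upward, or on day 3. The Spearman correlation of Ppp3cb with this share was 0.07, 0.14 and 0.26 on days 1, 2 and 3. On day 2 it was 0.18 for Ppp3ca and 0.14 for Ppp3r1. Among wells with 25 to 35% mitochondrial counts, Ppp3cb was at 54.7, 61.2 and 63.5 CPM on days 1, 2 and 3, and the day 3 mixture over day 2 then gave a log2 ratio of 0.05 in place of -1.26. Ppp3ca in the same band was at 38.5, 66.7 and 70.6 CPM, and its day 3 over day 2 ratio was 0.08. This band held 134 wells of day 3, 102 of day 2 and 82 of day 1, whereas 644 of the 891 day 3 wells had under 25%. Among wells under 25%, Ppp3cb was at 26.5 CPM on day 3 against 41.0 CPM on day 2, and Ppp3ca at 46.2 against 51.3 CPM. From 35 to 45%, Ppp3cb was at 49.0 CPM on day 3 (76 wells) against 89.9 CPM on day 2, and above 45% at 89.1 CPM (37 wells) against 105 CPM. Ppp3cb was thus lower on day 3 than on day 2 in the other 3 bands, but not from 25 to 35%. Ppp3ca was lower on day 3 from 35 to 45% (74.1 against 94.0 CPM) and higher above 45% (181 against 88.7 CPM). From 25 to 35%, Rcan1 was at 48.6, 176 and 61.7 CPM on days 1, 2 and 3, and Lmcd1 at 24.0, 95.3 and 43.0 CPM. Both were highest on day 2 there. From 35 to 45% both were again highest on day 2, Rcan1 at 54.3, 194 and 79.2 CPM and Lmcd1 at 17.1, 82.9 and 45.2 CPM. Above 45%, Rcan1 was at 54.6, 160 and 87.7 CPM. Lmcd1 was at 17.3, 61.6 and 87.1 CPM above 45%, so it was highest on day 3 in those wells.

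Ppp3r1 (chr11:17159263-17200375, plus strand), which encodes the regulatory B subunit, stood at 16.1, 20.2 and 12.7 CPM on days 1, 2 and 3. Its log2 ratio was 0.32 for day 2 over day 1 (0.24 to 0.40) and -0.71 in the 25 to 35% mitochondrial band. The day 3 mixture over day 2 gave -0.67, and 0.44 in that band. The exons of Ppp3r1 overlap those of Wdr92 on the same strand, so its counts are uncertain.

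The NFAT transcription factor genes were low. Nfatc3 (chr8:106058840-106130537, plus strand) stood at 6.09, 7.45 and 5.40 CPM on days 1, 2 and 3, with a count in 12.5, 12.3 and 16.5% of wells. One well held 25.1% of its counts on day 1 and 19.5% on day 2. Its exons overlap Esrp2 on the opposite strand, and without a stated strand setting the reads of the pair cannot be told apart. Nfatc4 (chr14:55823144-55833943, plus strand) had 50, 21 and 285 counts on days 1, 2 and 3, or 0.353, 0.145 and 0.951 CPM, in 0.723, 1.23 and 2.58% of wells. A single well gave 56.0, 33.3 and 36.5% of those counts, so no order of days is read from Nfatc4.

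Of the 8 members, 6 reached a mean of 10 CPM in each comparison, all but Nfatc3 and Nfatc4. At least 2-fold higher on day 2 than on day 1 were 2 of these 6, Rcan1 and Lmcd1, where 4.8% of 6455 genes were higher by that much. Lower by 2-fold were 0 of the 6, against a background of 1.86%. For the day 3 mixture against day 1, Lmcd1 alone was 2-fold higher (background 4.84% of 6175 genes) and 0 members were 2-fold lower (6.25%). For the day 3 mixture against day 2, 0 members were 2-fold higher (3.15% of 6346 genes), and Rcan1 and Ppp3cb were 2-fold lower (10.6%), Ppp3cb no longer so with mitochondrial counts in the total (-0.88) or with the size factors given next, where it lay just under 2-fold. Since Rcan1 and Lmcd1 were chosen on these contrasts, nothing is read from their part of the counts. The median log2 ratio of the 6 members was 0.58, -0.05 and -0.63 in these comparisons, beside 0.15, -0.12 and -0.26 over all genes measured. With median-of-ratios size factors, which subtract that median from every log2 ratio, the shares of genes 2-fold higher and lower were 2.97 and 2.85% for day 2 against day 1, 6.17 and 4.49% for day 3 against day 1, and 5.77 and 4.66% for day 3 against day 2. With mitochondrial counts in the total, the shares were 10.5 and 1.72% for day 3 against day 1 and 7.29 and 2.25% for day 3 against day 2. Under the size factors, Rcan1 and Lmcd1 had log2 ratios of 1.62 and 1.89 for day 2 over day 1.

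**Figure D2:**
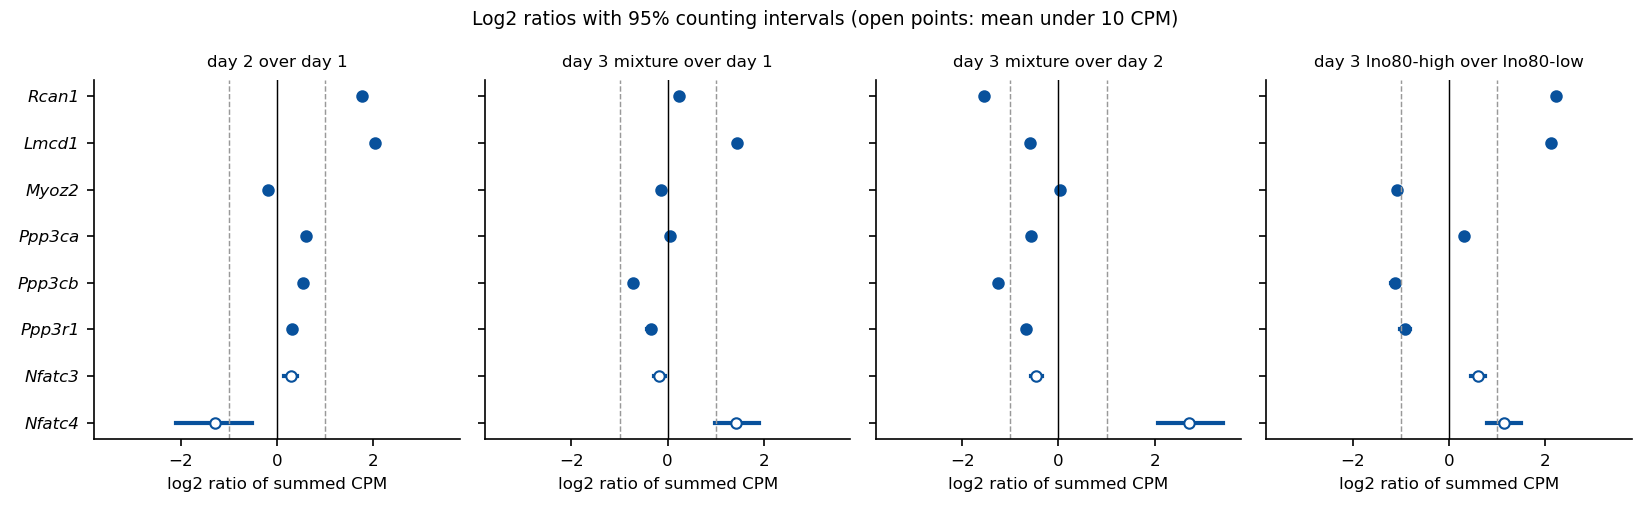
Log2 ratios of summed CPM for the 8 members in the 4 comparisons, with 95% counting intervals and dashed lines at a 2-fold difference; open points mark members with a mean under 10 CPM. Rcan1 and Lmcd1 lie beyond 2-fold for day 2 over day 1 and for Ino80-high over Ino80-low wells, and Myoz2 and Ppp3cb lie beyond it on the other side in the last panel.

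Within the day 3 library, Ino80-high wells had more Rcan1 and Lmcd1 and less Myoz2 and Ppp3cb than Ino80-low wells. Rcan1 stood at 119 CPM in Ino80-high wells, with a well median of 57.9 CPM, against 25.4 CPM and a median of 2.84 CPM in Ino80-low wells. From the first to the third quartile it was at 11.1 to 201 CPM in Ino80-high wells and at 0 to 15.5 CPM in Ino80-low wells, so these ranges overlapped only narrowly. Lmcd1 stood at 90.6 CPM in Ino80-high wells, with a median of 30.4 CPM, against 20.9 CPM and a median of 0 CPM in Ino80-low wells. The log2 ratios, Ino80-high over Ino80-low, were 2.23 for Rcan1 (2.18 to 2.28) and 2.11 for Lmcd1 (2.06 to 2.17). Thinned wells had a count in 66.0% of Ino80-high and 24.7% of Ino80-low wells for Rcan1, and in 52.5% against 18.8% for Lmcd1.

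Myoz2 went the other way, at 175 CPM in Ino80-high against 372 CPM in Ino80-low wells, with well medians of 145 and 344 CPM. Its log2 ratio was -1.08 (-1.11 to -1.06), and the third quartile of Ino80-high wells, 248 CPM, was just above the first quartile of Ino80-low wells, 240 CPM. Ppp3cb stood at 20.3 CPM in Ino80-high against 44.7 CPM in Ino80-low wells, a log2 ratio of -1.14 (-1.20 to -1.07). The other catalytic subunit gene, Ppp3ca, stood at 61.4 against 49.6 CPM, a log2 ratio of 0.31 (0.26 to 0.35). Ppp3r1 stood at 8.19 against 15.5 CPM, a log2 ratio of -0.92 (-1.03 to -0.81), but at 17.1 against 14.6 CPM among wells with 25 to 35% mitochondrial counts. Nfatc3 stood at 6.91 against 4.59 CPM. Nfatc4 had 169 against 114 counts, of which single wells gave 49.1 and 91.2%.

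Among the 6 members that reached a mean of 10 CPM, 2 were at least 2-fold higher in Ino80-high wells (background 23.2% of 5992 genes) and 2 were at least 2-fold lower (11.4%). Since the members were listed with this split, these counts and the settings below describe the choice, and nothing is read from them. With median-of-ratios size factors the background was 16.8 and 16.4%, and 3 members were lower, with Ppp3r1 at -1.18. The log2 ratios were then 1.97 for Rcan1, 1.85 for Lmcd1, -1.34 for Myoz2 and -1.39 for Ppp3cb. Among wells with 25 to 35% mitochondrial counts both lay under 2-fold, Myoz2 at -0.69 and Ppp3cb at -0.87. Ppp3cb passed 2-fold under 7 of 14 alternatives and Myoz2 under 13 of 14, all with the same sign. The classes fell into different clusters: 402 of the 403 Ino80-high wells lay in a cluster led by Sprr1a, and 432 of the 440 Ino80-low wells in a cluster led by Gpr22. The 12 ventricular markers summed to 78473 CPM in Ino80-high against 137254 CPM in Ino80-low wells, the 11 macrophage markers to 205 against 40.1 CPM, the 12 endothelial markers to 1265 against 564 CPM, and the 11 fibroblast markers to 386 against 242 CPM, with no marker of these lists at 0. The 8 erythroid markers summed to 661 against 122 CPM, with Slc4a1 at 0 in Ino80-high wells, and the 9 atrial markers to 2551 against 1066 CPM. Median counts per well were 306453 in Ino80-high and 437832 in Ino80-low wells. The part of cell makeup and depth in these differences was not tested.

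The wells of day 1, those of day 2 and the Ino80-high wells of day 3 differed in their calcineurin genes. The first 2 sets were not cut by Ino80, and 49 wells of day 1 and 18 of day 2 lay at 100 to 1000 CPM. Median Ino80 was 2628 CPM on day 1, 5481 CPM on day 2 and 2839 CPM in Ino80-high wells of day 3. In these 3 sets of wells Rcan1 was 52.8, 181 and 119 CPM and Lmcd1 18.2, 74.7 and 90.6 CPM, while Myoz2 was 323, 285 and 175 CPM and Ppp3cb 56.4, 82.2 and 20.3 CPM. Day 1 wells were thus close to Ino80-low wells in Lmcd1 (18.2 and 20.9 CPM) although their Ino80 was high, and Ino80-high wells were lowest of all sets in Myoz2 and Ppp3cb.

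Inside a library, Rcan1 and Lmcd1 did not climb steadily with Ino80. When wells were put in quartiles of Ino80, Rcan1 was at 45.4, 46.2, 40.9 and 80.8 CPM on day 1 from the lowest to the highest quartile, at 204, 192, 145 and 179 CPM on day 2, and at 91.5, 124, 113 and 149 CPM in Ino80-high wells of day 3. Lmcd1 was at 20.4, 22.8, 12.5 and 16.5 CPM on day 1, at 70.7, 103, 49.8 and 79.4 CPM on day 2, and at 88.5, 77.7, 93.6 and 105 CPM in Ino80-high wells. Rcan1 was highest in the top quartile on day 1 and in the Ino80-high wells, and in the lowest quartile on day 2. Ppp3ca was higher in each higher quartile on both days, at 36.8, 39.0, 60.4 and 75.2 CPM on day 1 and 63.7, 75.8, 83.7 and 102 CPM on day 2. Ppp3cb was at 44.7, 38.7, 48.9 and 96.8 CPM on day 1 and at 48.2, 60.6, 120 and 108 CPM on day 2. The median mitochondrial share also went up with Ino80, as 38.6, 39.9 and 42.2% over the lower 3 quartiles of day 1 and 25.6, 41.4, 47.4 and 49.5% over the 4 quartiles of day 2. Its part in these patterns was not tested.

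**Figure D3:**
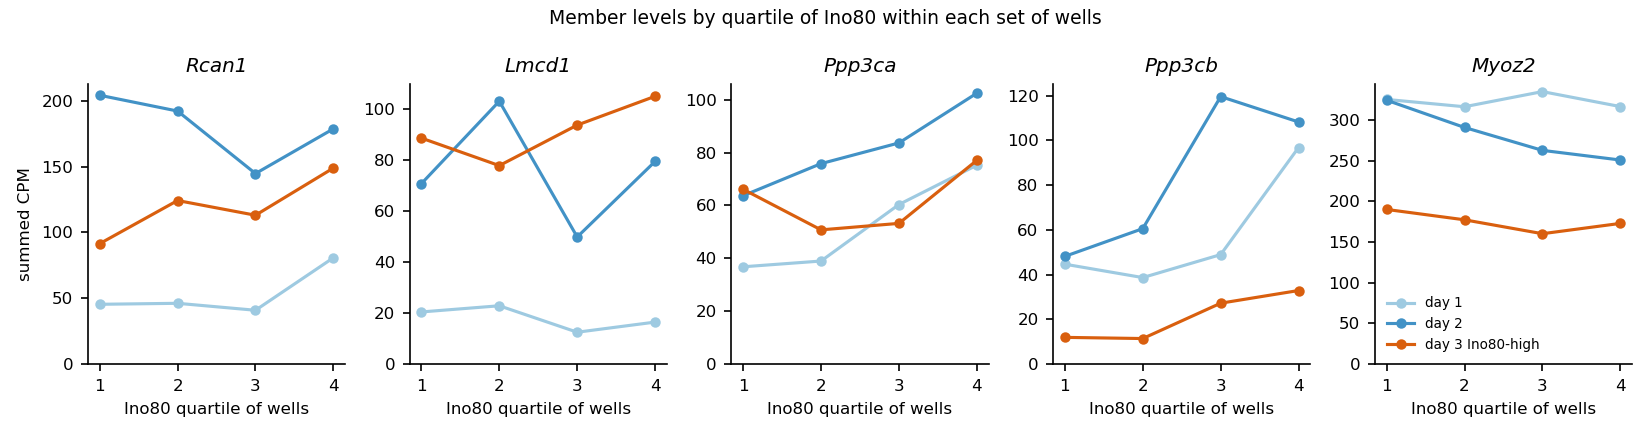
Summed CPM of 5 members by quartile of Ino80 among wells of day 1, day 2 and the Ino80-high class of day 3. Ppp3ca is higher in each higher Ino80 quartile on days 1 and 2, whereas Lmcd1 shows no steady order on either day.

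As a description over wells that share a library, the Spearman correlation of Rcan1 with Ino80 was 0.20 on day 1, -0.08 on day 2, 0.10 in Ino80-high and 0.09 in Ino80-low wells (553, 570, 403 and 440 wells). It was 0.44 over the 891 wells of the day 3 mixture, where 5% of 3569 genes lay above 0.40. For Lmcd1 the values were 0.01, -0.09, 0.07 and -0.02 in the same order, and 0.37 over the mixture. For Myoz2 they were 0.04, -0.16, 0.02 and 0.04, and -0.46 over the mixture, where 5% of genes lay below -0.34. For all 3 genes the correlation over the mixture was thus larger in size than within either of its Ino80 classes. Rcan1 and Lmcd1 correlated with each other at 0.02 on day 1, 0.16 on day 2 and 0.21 on day 3, and at 0.02 within Ino80-high and 0.04 within Ino80-low wells.

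Rcan1 and Lmcd1 were higher on day 2 than on day 1 within each of the main compartment clusters of those days. These clusters divide the wells already summed above. The contrast describes how these genes were chosen, so nothing is read from it. In the cluster led by Ccl5, Rcan1 was at 199 CPM on day 2 (157 wells) and 43.2 CPM on day 1 (341 wells). In the cluster led by Igkc, whose leading gene came almost wholly from 1 well on day 2, it was at 172 CPM on day 2 (408 wells) and 78.9 CPM on day 1 (179 wells). Lmcd1 was at 82.4 against 17.2 CPM in the Ccl5 cluster and at 72.2 against 19.6 CPM in the Igkc cluster, day 2 against day 1.

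Rcan1 and Lmcd1 were highest on day 2 in wells outside the compartment as well. These wells come from the same libraries, so nothing further is read from that order. Rcan1 was at 46.8, 134 and 81.3 CPM in macrophage-like wells and at 61.6, 124 and 77.2 CPM in fibroblast-like wells on days 1, 2 and 3. In endothelial-like wells it was at 59.9, 111 and 45.6 CPM, the last from only 9 wells. Day 2 over day 1 gave Rcan1 log2 ratios of 1.77 in the compartment, 1.52 in macrophage-like, 1.01 in fibroblast-like and 0.89 in endothelial-like wells. For Lmcd1 the ratios were 2.04, 2.45, 1.55 and 1.42, although 1 well gave 50.5% of the 307 Lmcd1 counts of the macrophage-like wells on day 1. The ratio of Ppp3cb also differed by class. It was 0.54 in the compartment, 0.02 in macrophage-like (-0.11 to 0.15), 0.17 in fibroblast-like and 1.03 in endothelial-like wells. A single well gave 44.3% of the Ppp3cb counts of the macrophage-like wells on day 2. With Myh6 RNA in all 4 classes, these values do not tell RNA of the imaged cell and RNA of other cells apart.

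**Figure D4:**
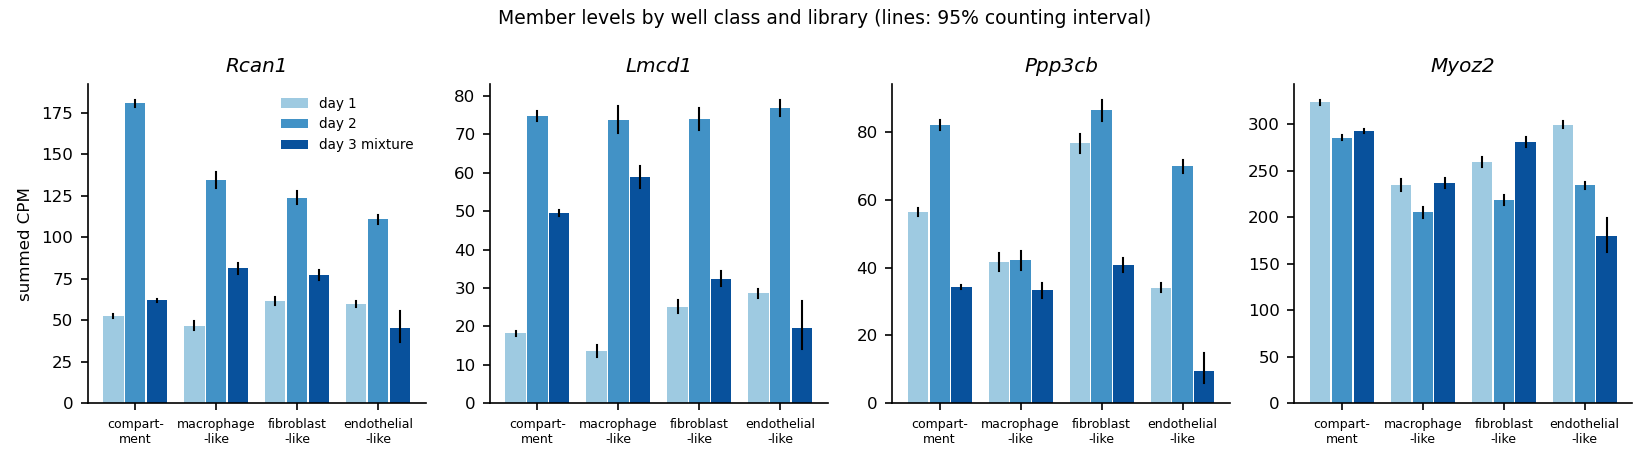
Summed CPM of Rcan1, Lmcd1, Ppp3cb and Myoz2 by well class on days 1, 2 and 3, with 95% counting intervals. Rcan1 and Lmcd1 are highest on day 2 in all 4 classes, and the endothelial-like wells of day 3 number 9.

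The split of the day 3 library by Ino80 gave Rcan1 and Lmcd1 the same direction in macrophage-like and fibroblast-like wells as in the compartment. It was not seen in the fibroblast-like cluster that both Ino80 classes share, which held only 5 Ino80-high wells. Macrophage-like wells comprised 41 Ino80-high and 32 Ino80-low wells, and Rcan1 was at 139 against 31.9 CPM in them, a log2 ratio of 2.12 (1.97 to 2.27). Fibroblast-like wells comprised 33 and 45, and Rcan1 was at 107 against 63.2 CPM, a log2 ratio of 0.76 (0.64 to 0.87). The 2 Ino80 classes of fibroblast-like wells lay in different clusters: 28 of the 33 Ino80-high wells were in a cluster led by Timp1, which held 0 Ino80-low wells, and all 45 Ino80-low wells were in a cluster led by Dcn. The 5 Ino80-high wells of the Dcn cluster had Rcan1 at 41.1 CPM, Lmcd1 at 6.71 CPM and Ppp3ca at 5.87 CPM, from 49, 8 and 7 counts. Each was below the Ino80-low wells of that cluster, where a single well gave 28.7, 35.9 and 48.2% of the counts. The higher values of the fibroblast-like class thus rest on the Timp1 cluster, and the direction within the Dcn cluster is uncertain. Lmcd1 was at 126 against 4.50 CPM in macrophage-like and at 62.5 against 10.02 CPM in fibroblast-like wells. Myoz2 was lower in Ino80-high wells here as well, at 156 against 316 CPM and at 150 against 372 CPM. Myh6 moved in the same direction, at 4302 against 14721 CPM in macrophage-like and 2939 against 15151 CPM in fibroblast-like wells. Ppp3ca was at 65.5 against 24.9 CPM and at 93.6 against 33.1 CPM, with a log2 ratio of 1.39 in macrophage-like wells beside 0.31 in the compartment. Ppp3cb was at 28.9 against 36.6 CPM and at 38.3 against 46.6 CPM. A single well gave 37.6% of the Ppp3ca counts of the Ino80-high fibroblast-like wells.

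**Figure D5:**
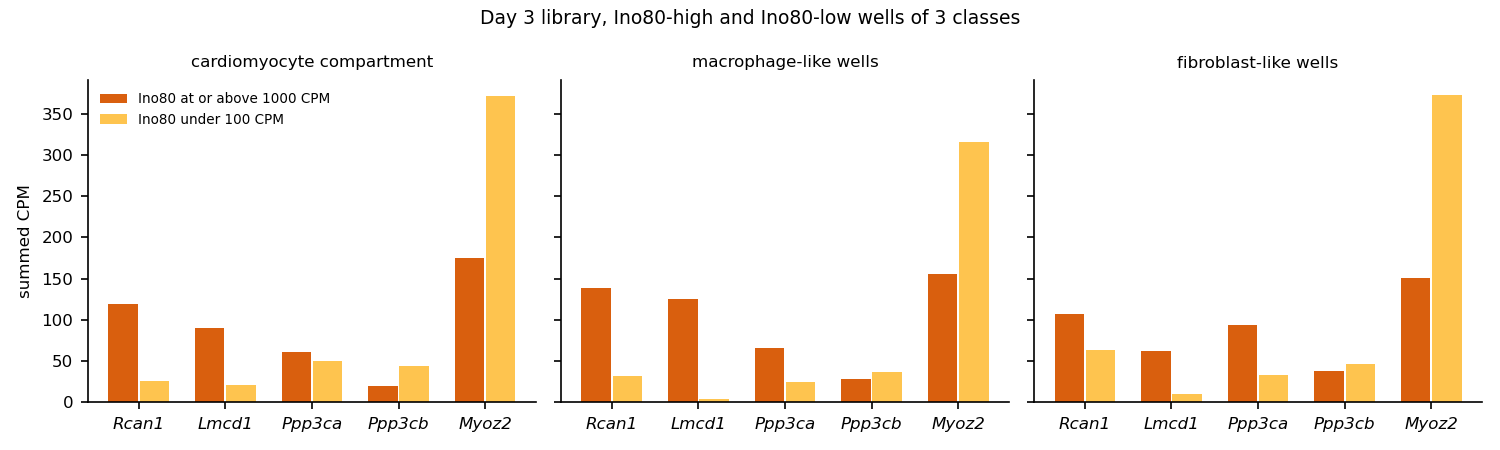
Summed CPM of 5 members in Ino80-high and Ino80-low wells of the day 3 library, for the compartment, macrophage-like and fibroblast-like wells. Rcan1, Lmcd1 and Ppp3ca are higher and Ppp3cb and Myoz2 lower in Ino80-high wells of all 3 classes; among fibroblast-like wells the 2 Ino80 classes lie mostly in different clusters.

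Other genes of the pathway were taken from lists, which were chosen with earlier results of these data known. Their counts and medians beside those of all genes therefore describe the choice, and no enrichment is read from them. Among the hypertrophic targets of the pathway, 4 of 7 measured genes were at least 2-fold higher and 1 was 2-fold lower on day 2 than on day 1, beside 4.8 and 1.86% of all genes. Adamts1, a secreted protease, was at 75.8 against 20.02 CPM, Nppb, the B-type natriuretic peptide, at 521 against 214 CPM, Acta1, skeletal actin, at 2357 against 1151 CPM and Ankrd1, a stress-responsive titin-binding protein, at 1102 against 541 CPM, day 2 against day 1. Nppa, the atrial natriuretic peptide, was lower on day 2, at 12.9 against 185 CPM, and the atrial marker list to which it belongs summed to 225 against 6916 CPM. In Ino80-high wells 5 of 8 were 2-fold higher and 1 was lower, beside 23.2 and 11.4% of all genes. Nppa at 230 against 30.3 CPM, Ankrd1 at 4201 against 669 CPM, Nppb at 1203 against 216 CPM, Adamts1 at 118 against 18.9 CPM and Acta1 at 2426 against 576 CPM were higher, and Bdnf was lower at 5.84 against 14.5 CPM. Their median log2 ratio was 1.03 for day 2 over day 1 and 2.27 for Ino80-high over Ino80-low wells, beside 0.15 and 0.26 over all genes. With that median subtracted, Acta1 and Ankrd1 lay under 2-fold for day 2 against day 1.

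Among inhibitors, anchors and binding proteins of calcineurin, 1 of 14 measured genes was 2-fold higher and 0 were 2-fold lower on day 2 than on day 1, near the background of 4.8 and 1.86%. It was Fbxo32, the ubiquitin ligase atrogin-1, which targets calcineurin in heart, at 233 against 106 CPM, just under 2-fold (log2 ratio 0.99) with the median over all genes subtracted. In Ino80-high wells 3 of 14 were higher, near the background of 23.2%, and 5 were lower, where the background was 11.4%. With the median subtracted, 2 were higher and 6 lower. Akap5, which anchors calcineurin at membranes, was higher at 34.7 against 4.48 CPM, and Ppia, the cyclophilin through which ciclosporin blocks calcineurin, at 106 against 30.02 CPM. Rcan2, a relative of Rcan1, was lower at 68.1 against 239 CPM, and Fhl2, a LIM protein that binds calcineurin, at 95.1 against 523 CPM. Rcan1 and Rcan2 thus stood on opposite sides in this split, whereas day 2 over day 1 gave Rcan2 a log2 ratio of 0.08.

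Among NFAT kinases and partner factors, 1 of 16 measured genes was 2-fold higher and 0 were lower on day 2 than on day 1, again near the background of 4.8 and 1.86%. It was Dyrk1a, a kinase that returns NFAT to the cytoplasm, at 32.6 against 15.9 CPM, a log2 ratio of 1.04 that lies under 2-fold once the median over all genes is subtracted. In Ino80-high wells 1 of 16 was higher and 2 were lower, beside 23.2 and 11.4% of all genes. With the median over all genes subtracted, 1 was higher and 4 were lower. Csnk1e, a casein kinase, was higher at 47.3 against 16.4 CPM. The MEF2 factor genes Mef2a (70.1 against 209 CPM) and Mef2c (38.2 against 130 CPM) were lower. Among calmodulin and calcium entry genes, 0 of 12 differed by 2-fold between day 2 and day 1, which is near the same background. In Ino80-high wells 3 of 11 were 2-fold higher, near the background of 23.2%, and 3 were 2-fold lower, where the background was 11.4%. With the median over all genes subtracted, 2 were higher and 4 lower. Among the higher ones were Calm2 (354 against 162 CPM) and Calm3 (323 against 116 CPM), which encode calmodulin. Calm2 was no longer 2-fold higher with the median over all genes subtracted. The L-type calcium channel gene Cacna1c (12.1 against 70.2 CPM), the ryanodine receptor gene Ryr2 (440 against 1691 CPM) and the sodium-calcium exchanger gene Slc8a1 (82.1 against 234 CPM) were lower, in a set of wells where the ventricular markers, which include Ryr2, were lower too. Of the subunit and NFAT genes outside the 8, only Nfat5 reached a mean of 10 CPM in this split, at 14.6 against 11.5 CPM.

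Against day 1, the day 3 mixture was 2-fold higher in 3 of 15 inhibitors, anchors and binding proteins and in 1 of 16 kinases and partners. It was higher in 2 of 11 calmodulin and calcium entry genes and in 3 of 7 hypertrophic targets. Lower by 2-fold were 0, 0, 1 and 1 genes of these lists in that order. The background was 4.84% higher and 6.25% lower. Higher in the mixture were Fhl2 (356 against 75.6 CPM), Csrp3, a Z-disc LIM protein (4690 against 1375 CPM), Akap5 (16.4 against 5.45 CPM), Mef2c (95.3 against 42.5 CPM), Slc8a1 (176 against 48.1 CPM) and Camk2d, a calmodulin-dependent kinase (60.2 against 25.8 CPM). Ankrd1 (2060 against 541 CPM), Nppb (604 against 214 CPM) and Adamts1 (57.3 against 20.02 CPM) were higher too, and Myh7, the slow myosin heavy chain, was lower (98.6 against 397 CPM). Against day 2, 1 of 15, 1 of 16, 2 of 11 and 1 of 7 genes of these lists were 2-fold higher, where the background was 3.15%. Lower by 2-fold was 1 gene in each list, where the background was 10.6%. Fhl2 (356 against 113 CPM), Mef2c (95.3 against 44.1 CPM), Slc8a1 (176 against 81.2 CPM) and Nppa (108 against 12.9 CPM) were higher in the day 3 mixture than on day 2. The NFAT kinase gene Dyrk2 (19.3 against 48.6 CPM), Camk2g (11.8 against 29.9 CPM), Cabin1, which encodes a calcineurin inhibitor (9.36 against 21.7 CPM), and Myh7 (98.6 against 376 CPM) were lower, Cabin1 under 2-fold (log2 ratio -0.95) with the median over all genes subtracted. Within day 3, Fhl2, Mef2c and Slc8a1 were each lower in Ino80-high than in Ino80-low wells, by the values given above.

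The genes most like Rcan1 over wells, by the lowest Spearman correlation of the 3 libraries among 3568 genes, were Ier5 (0.16), Des (0.15), Xirp1 (0.15), Midn (0.14) and Fgl2 (0.14). For Lmcd1, among 3569 genes, they were Lrrc58 (0.12), Pmm1 (0.11), Nploc4 (0.11), Clic4 (0.10) and Mprip (0.10). These correlations are weak in counts with many zeros and share depth, so they describe the wells and are no finding. Lmcd1 had a lowest correlation of 0.02 with Rcan1.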

How the data were processed

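Read counts per gene and well were deposited by the authors without any scaling. Reads were handled with cutadapt, STAR and featureCounts and the build was mm10, per the submitters' processing notes. For versions, strand setting and duplicate removal, nothing was found (not given in the sources used here), so a count is treated as a read. The unit of every table used here is the count, as deposited. Symbols and positions came from GENCODE M21, where 55141 of 55401 mouse identifiers matched. Wells with at least 1000 counts and 300 genes were kept, which left out 7, 4 and 7 wells on days 1, 2 and 3. Kept wells were clustered in scanpy 1.11.5 (scaled to 10000, 2000 variable genes, 30 components, 15 neighbours, Leiden resolution 0.5); no doublet caller was run. Clusters with 3 or more markers of a non-cardiomyocyte type at 2-fold and 20 CPM were left out of the compartment, and atrial-like wells were kept. Summed counts were divided by the nuclear total. Levels have exact Poisson intervals, ratios exact binomial intervals and shares of wells Clopper-Pearson intervals at 95%. The calculation of the log2 ratios was tested on simulated counts, and the intervals were not. Genes were counted as apart at 2-fold among those with a mean of at least 10 CPM. The 8 members and all gene lists were chosen with earlier results of these data known. All 8 members are named, and other list genes when a log2 ratio with 5 CPM added reached 1 in size, at most 4 per list and comparison. Some were added after their values were seen. These are Acta1 and Bdnf in the day 3 split, Ankrd1 and Dyrk1a on day 2, Calm2, Calm3, Cabin1, Nfatc2, Nfat5 and the day 2 value of Rcan2. Some list genes are not reported here. Another clustering would draw other classes.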

Additional observations from a re-analysis of the deposited data

Results flagged for a closer look

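Ppp3r1, the gene of the regulatory calcineurin subunit, differed in direction between well classes for day 2 over day 1. Its log2 ratio was -0.2164 in fibroblast-like wells (17.0 against 19.8 CPM) and -0.2146 in endothelial-like wells (15.2 against 17.7 CPM), while it was 0.32 in the compartment (20.2 against 16.1 CPM). In macrophage-like wells the ratio was 0.13 (-0.05 to 0.30). Inside the compartment no single direction held. Ppp3r1 was at 8.76 against 12.7 CPM in the Ccl5 cluster and at 24.9 against 23.9 CPM in the Igkc cluster, day 2 against day 1. The difference between classes was not tested, since each day has 1 library. The exons that Ppp3r1 shares with Wdr92 add to the uncertainty of these low counts.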

How the results depend on the processing

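No paired analysis was possible because each group has 1 library. Of 416 member log2 ratios under alternatives, 394 kept their sign. Rcan1 ranged from 1.12 to 2.21 and Lmcd1 from 1.78 to 2.26 for day 2 over day 1, and from 1.97 to 2.33 and from 1.85 to 2.70 for Ino80-high over Ino80-low wells. Restricting to wells with 25 to 35% mitochondrial counts turned round Ppp3r1 (-0.71), Nfatc3 (-1.04) and Nfatc4 (2.54) for day 2 over day 1. It did so for Myoz2 (0.063), Ppp3cb (0.21) and Nfatc3 (0.22) for day 3 over day 1, for Ppp3ca (0.082), Ppp3cb (0.054), Ppp3r1 (0.44), Nfatc3 (1.25) and Nfatc4 (-1.26) for day 3 over day 2, and for Ppp3r1 (0.23) for Ino80-high over Ino80-low wells. In that band Nfatc4 was at 0 CPM on day 1, and a count of 0 was set to 3, so its 2.54 rests on that floor. The Ccl5 cluster alone, chosen after seeing the data, gave Ppp3r1 -0.53 for day 2 over day 1. For day 3 over day 1, mitochondrial counts in the total gave Myoz2 0.23, Ppp3r1 0.028 and Nfatc3 0.20, and the mean of per-well CPM gave Ppp3ca -0.046 and Nfatc3 0.39. Nfatc3 was also positive there with all kept wells (0.30), 1000 variable genes (0.18), thinned wells (0.41) or the top well left out (0.12). Counts of members 2-fold apart changed in settings that include the following. Without a filter on low genes, 1 was lower for day 2 against day 1, 2 were higher for day 3 against day 1 and 1 was higher for day 3 against day 2. At 1.5-fold, 3 were higher for day 2 against day 1, 1 was lower for day 3 against day 1 and 4 for day 3 against day 2. In the 25 to 35% band, 0 were higher for day 3 against day 1 and 0 lower in Ino80-high wells. For day 3 against day 2, 1 was lower with mitochondrial counts in the total or with size factors. Size factors gave 3 lower in Ino80-high wells. In Ino80-high wells, 1 was lower with all kept wells, with the mean of per-well CPM, with 5 CPM added, and with Ino80 classes at 500 and 50 or at 2000 and 50 CPM. Causes of these changes were not tested. Nfatc3 and Nfatc4 are limited by depth and by single wells, Ppp3r1 and Ppp3cb by their relation to the mitochondrial share, and every value by 1 library a group.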
